A study of Mus musculus with 8 samples.

Results

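The genes described are 10 core genes of macrophages and of complement C1q, namely C1qa, C1qb, C1qc, Csf1r, Csf1, Cd68, Emr1, Lyz2, Cd14 and Fcgr1. They were taken by gene name from a table of FPKM, the fragments mapped to a gene scaled by its transcript length and by library size. Each has 1 row in the table, so the set is 10 of 34586 gene symbols, and all 10 lie above the level needed for testing. RNA was sequenced from 8 tumors explanted from the cecum of C57BL/6 mice, 4 labelled tamoxifen and 4 labelled vehicle. All 8 tumors share 1 genotype, with the Kit V558Delta/+ mutation, floxed Etv1 (flox/flox) and CreERT2/CreERT2 at Rosa26. The mutant Kit receptor gives mice tumors that resemble human gastrointestinal stromal tumors, and tamoxifen activates CreERT2, which can then delete the floxed Etv1 alleles. Rosa26 is a broadly active locus, so the recombinase is not limited to tumor cells. The comparison asks how expression differs after Etv1 ablation; no group here received tamoxifen without floxed Etv1, so the drug and the deletion cannot be told apart. The sources used here do not give the dose and timing of tamoxifen or the age of the mice. Nothing states that the replicates of a group come from separate mice, so each p-value reflects the spread between these libraries.

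C1q is the recognition unit of the classical complement pathway. Its A, B and C chains, encoded by C1qa, C1qb and C1qc, assemble with the proteases C1r and C1s and bind antibody complexes and dying cells. Unlike most complement proteins, which the liver makes, C1q comes mainly from macrophages and dendritic cells. Macrophages of the gut wall depend on the receptor tyrosine kinase encoded by Csf1r, whose ligands are Csf1 and interleukin-34. Many macrophages of normal and tumor tissue also carry Emr1 (F4/80, an adhesion receptor), the lysosomal glycoprotein Cd68, lysozyme M (Lyz2), the lipopolysaccharide co-receptor Cd14 and the high-affinity IgG receptor Fcgr1 (CD64).

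The promoters of the C1q genes are shown because these genes moved together from library to library. Those of Fcgr1 and Cd68 are shown because short motifs of macrophage and interferon-gamma regulated genes lie in them. Windows run from 250 bases before to 50 after the annotated start, 5′ to 3′ on the gene's strand, from RefSeq (GRCm38.p6, a later build than that of the expression table). A window was found for 6 of the 10 genes, C1qb, C1qc, Csf1, Cd68, Lyz2 and Fcgr1. Capitals mark GAGGAA, the core bound by the macrophage factor PU.1, or its reverse complement TTCCTC, and, in Fcgr1 alone, the interferon-gamma activated site TTCNNNGAA.
C1qb (chr4:136886151-136886450, minus strand): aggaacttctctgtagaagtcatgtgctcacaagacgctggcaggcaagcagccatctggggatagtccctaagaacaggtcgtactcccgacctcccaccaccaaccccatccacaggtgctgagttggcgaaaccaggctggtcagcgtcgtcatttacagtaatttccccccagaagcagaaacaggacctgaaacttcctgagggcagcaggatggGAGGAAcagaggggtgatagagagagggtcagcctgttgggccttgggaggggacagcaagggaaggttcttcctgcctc
C1qc (chr4:136892865-136893164, minus strand): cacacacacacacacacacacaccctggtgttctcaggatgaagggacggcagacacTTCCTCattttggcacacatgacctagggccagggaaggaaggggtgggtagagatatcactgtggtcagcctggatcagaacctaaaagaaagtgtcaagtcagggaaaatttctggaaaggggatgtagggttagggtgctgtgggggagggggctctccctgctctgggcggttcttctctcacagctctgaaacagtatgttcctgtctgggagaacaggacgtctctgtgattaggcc
Fcgr1 (chr3:96293920-96294219, minus strand): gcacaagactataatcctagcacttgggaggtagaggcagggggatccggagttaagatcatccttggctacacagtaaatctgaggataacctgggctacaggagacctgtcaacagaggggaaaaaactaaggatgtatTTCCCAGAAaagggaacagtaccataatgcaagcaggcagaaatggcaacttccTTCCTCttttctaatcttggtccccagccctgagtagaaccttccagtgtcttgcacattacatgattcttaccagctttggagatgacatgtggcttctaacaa
Cd68 (chr11:69666121-69666420, minus strand): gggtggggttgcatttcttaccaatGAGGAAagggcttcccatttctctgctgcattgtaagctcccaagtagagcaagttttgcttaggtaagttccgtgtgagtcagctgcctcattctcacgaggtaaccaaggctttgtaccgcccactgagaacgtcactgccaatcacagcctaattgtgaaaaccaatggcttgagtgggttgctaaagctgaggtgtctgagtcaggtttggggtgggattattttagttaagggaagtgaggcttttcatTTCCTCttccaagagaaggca

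GAGGAA on either strand was found in 4 of the 6 windows, with its first base 30 bases before the start in C1qb, 193 before in C1qc, 55 before in Fcgr1, and in Cd68 both 225 before and 29 after. It is held by 28.3% of all 32851 promoter windows. TTCNNNGAA was found in Fcgr1 alone, 109 bases before the start, and in 8.3% of all windows. CCGGAAG, a core of the ETS class that includes Etv1, was found in none of the 6 windows and in 8.86% of all. TGANTCA (AP-1) was found in Cd68 alone (7.81% of all windows), as was TTGCNNAA (C/EBP; 10.8% of all). Each motif was searched on both strands, and the marked letters do not overlap. A match is a stretch of letters and not a measured binding site.

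The depth of the libraries is unknown because only FPKM were used. Each library had 14176 to 14841 symbols at 1 FPKM or more. Etv1 measured 17.4 to 34.9 FPKM in the tamoxifen libraries and 34.6 to 51.1 FPKM in the vehicle libraries, with a log2 fold change of -0.70 (limma adjusted p = 0.13). The sample identifiers fall into 2 ranges, 1769 to 1784 (tamoxifen replicates 1 and 2, vehicle replicates 1 to 3) and 1996 to 2003 (tamoxifen replicates 3 and 4, vehicle replicate 4). Whether these ranges are batches is not stated. The half-width of the interval the authors deposited with each FPKM, whose confidence level is not stated, was 44.9% to 65.6% of the value over the 80 values of the 10 genes.

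By level, Lyz2 and the C1q genes led in both groups. Lyz2 averaged 635 ± 411 FPKM in tamoxifen tumors and 288 ± 61.9 FPKM in vehicle tumors (SD, n = 4 each). C1qa, C1qb and C1qc followed, above 95% of the tested genes in each group. C1qc averaged 157 ± 52.4 FPKM in tamoxifen and 137 ± 29.0 FPKM in vehicle tumors, so even the lowest C1q chain lay above the other 6 genes. Csf1r and Cd68 came next, and Emr1, Cd14, Csf1 and Fcgr1 were the lowest, at 16.2 to 30.6 FPKM on average in tamoxifen and 18.0 to 30.6 FPKM in vehicle tumors. Ordered by mean, all 9 pairs of neighbours had overlapping ranges in tamoxifen tumors. In vehicle tumors 3 of 9 pairs did not overlap, with C1qb above C1qc, C1qc above Csf1r, and Csf1r above Cd68. These macrophage markers were thus measured in every library. In a bulk tumor, fewer cells of a type cannot be told apart from less RNA per cell.

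**Figure D1:**
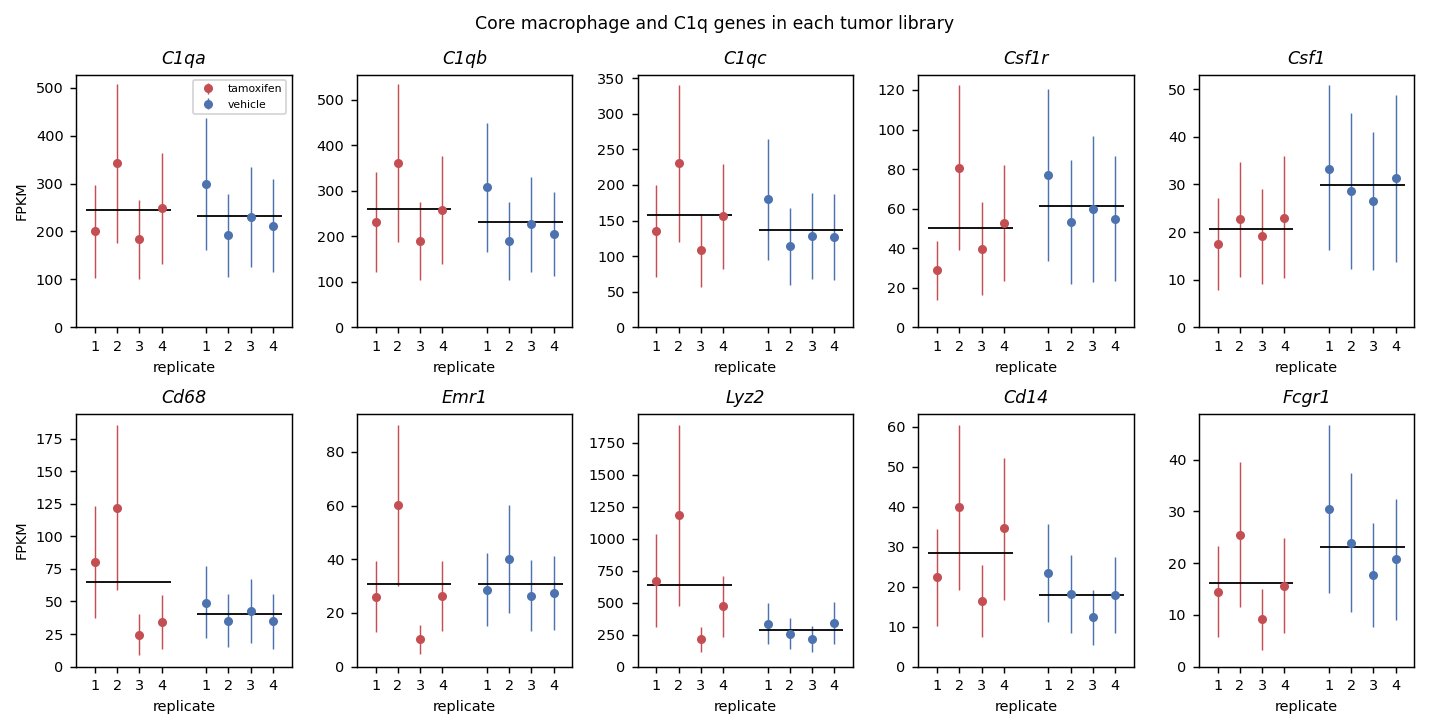
FPKM of the 10 genes in each library, tamoxifen (red) left of vehicle (blue); points are libraries, vertical bars the authors' deposited bounds and horizontal lines group means (n = 4 each). Csf1 is the 1 gene whose groups do not overlap, and Cd68, Emr1 and Lyz2 spread widely among the tamoxifen tumors.

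None of the 10 genes passed the threshold (limma, Benjamini-Hochberg adjusted p under 0.05 over all genes), and 6 had a positive and 4 a negative log2 fold change. Over all 15023 tested genes 5.45% passed, 2.38% higher and 3.07% lower in tamoxifen tumors. At an unadjusted p under 0.05 limma counted 1 of the 10, Csf1, against 22.4% of all tested genes, and the exact permutation test also counted 1. The median change of the 10 was 0.10, against 0.01 over all tested genes. The groups failed to overlap in 1 of the 10, against 15.1% of all tested genes. The count over all genes was 358 higher and 461 lower; scaling to equal total FPKM gave 154 higher and 75 lower, and the same scaling without the very short segments Ighj1 and Ighj4 gave 266 and 581.

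The C1q genes did not differ between the groups beyond their spread. They sit side by side on chromosome 4, within 18675 bases (136436044 to 136454718 in mm9), in the order C1qb, C1qc, C1qa. C1qa (ENSMUSG00000036887) measured 201, 343, 184 and 249 FPKM in tamoxifen replicates 1 to 4, against 299, 192, 229 and 212 FPKM in vehicle replicates 1 to 4. C1qb (ENSMUSG00000036905) measured 232, 361, 190 and 258 FPKM in tamoxifen tumors, against 307, 190, 226 and 205 FPKM in vehicle tumors. C1qc (ENSMUSG00000036896) measured 135, 230, 108 and 156 FPKM in tamoxifen tumors, against 180, 114, 128 and 127 FPKM in vehicle tumors. All 3 were highest in tamoxifen replicate 2, next in vehicle replicate 1 and lowest in tamoxifen replicate 3, so each tamoxifen range encloses the vehicle range. The log2 fold changes of FPKM + 1 were 0.04 (95% interval -0.47 to 0.55), 0.15 (-0.37 to 0.67) and 0.16 (-0.39 to 0.72) for C1qa, C1qb and C1qc, with limma adjusted p of 0.929, 0.738 and 0.736. The signs are not stable: all 3 turned negative without tamoxifen replicate 2 (-0.13, -0.021 and -0.040).

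The chains kept close proportions in all 8 tumors. On the FPKM scale C1qa held 37.0 ± 1.24% of the summed C1q signal in tamoxifen and 38.8 ± 0.532% in vehicle tumors. C1qb held 39.5 ± 0.982% in tamoxifen and 38.4 ± 0.613% in vehicle tumors, and C1qc 23.6 ± 0.924% in tamoxifen and 22.8 ± 0.603% in vehicle tumors (SD, n = 4 each). The ratio of C1qc to C1qb overlapped between groups, at 0.569 to 0.638 in tamoxifen and 0.567 to 0.620 in vehicle tumors. The ratio of C1qa to C1qb was 0.865 to 0.970 in tamoxifen and 0.973 to 1.03 in vehicle tumors, without overlap. That separation is narrow, it is 1 of 12 ratios computed with the members' values known, and no test was made of it.

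Calls among complement genes lay outside C1q, in proteases, an inhibitor and a membrane regulator. Of 23 other tested genes of the classical and alternative pathways and their receptors, 3 fell, 1 rose and 19 did not pass, against 3.07% lower and 2.38% higher over all genes, and the median change was -0.11. C1ra, a C1r protease gene, measured 27.4, 35.6, 28.5 and 27.5 FPKM in tamoxifen tumors, against 61.7, 44.0, 43.3 and 54.6 FPKM in vehicle tumors (log2 fold change -0.75, SE 0.15, limma adjusted p = 0.0306). Serping1, which encodes the C1 inhibitor, measured 213, 239, 232 and 176 FPKM in tamoxifen tumors, against 353, 321, 300 and 381 FPKM in vehicle tumors (-0.66, SE 0.14, adjusted p = 0.0361). C2, the protease cleaved by active C1, measured 71.6, 54.999, 87.5 and 62.9 FPKM in tamoxifen tumors, against 114, 107, 104 and 122 FPKM in vehicle tumors (-0.70, SE 0.15, adjusted p = 0.0384). The lowest vehicle tumor thus lay above the highest tamoxifen tumor for each of these genes, while C1q itself overlapped. Such separation was not particular to them. Of the 23 genes 9 did not overlap between the groups, 6 lower and 3 higher in tamoxifen tumors, against 15.1% of all tested genes.

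The protease partner C1s was lower in every tamoxifen tumor without passing, at 186, 184, 121 and 111 FPKM against 297, 234, 251 and 221 FPKM in vehicle tumors (log2 fold change -0.76, adjusted p = 0.0683; named after its values were seen). Cd46, a membrane cofactor that restrains complement, rose to 2.06 to 6.05 FPKM in tamoxifen tumors, against 0.838 to 1.499 FPKM in vehicle tumors (log2 fold change 1.06, adjusted p = 0.0488). C3, the central component, overlapped between the groups at 83.8 to 297 FPKM in tamoxifen and 85.4 to 163 FPKM in vehicle tumors. These 4 calls are close to the threshold. Leaving out 1 library ended each of them in 7 of 8 cases, with adjusted p of 0.0887 (C1ra), 0.102 (Serping1) and 0.106 (C2) without vehicle replicate 4 and 0.125 (Cd46) without vehicle replicate 3. Scaling to total FPKM ended all 4, with adjusted p of 0.223, 0.421, 0.403 and 0.146 for C1ra, Serping1, C2 and Cd46. The loci of C1ra and C1s overlap each other and that of Gm16567, and the locus of C2 overlaps that of Cfb, so reads may be divided between these genes.

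Of the ligands of the Csf1 receptor, Il34 fell in tamoxifen tumors and Csf1 was lower in every tamoxifen tumor without passing the threshold. Csf1 (ENSMUSG00000014599, chromosome 3, 107543966 to 107563387 in mm9), the macrophage growth factor, measured 17.5, 22.6, 19.1 and 23.0 FPKM in tamoxifen replicates 1 to 4, against 33.3, 28.5, 26.4 and 31.2 FPKM in vehicle replicates 1 to 4. Every tamoxifen tumor lay below every vehicle tumor, with means of 20.6 ± 2.72 and 29.9 ± 3.02 FPKM (SD, n = 4 each). The log2 fold change was -0.52 (95% interval -0.82 to -0.23), and the limma adjusted p of 0.0539 missed the threshold. The exact 2-sided permutation test gave p = 0.0286, the smallest that 70 arrangements allow. Within the lower and the higher identifier range the difference was -0.54 and -0.55, and the higher range holds 1 vehicle library. Leaving out 1 library moved the fold between -0.58 and -0.45, and the adjusted p over all alternatives ran from 0.0517 to 0.443. The authors' bounds of the 8 libraries all share the stretch from 16.2 to 27.2 FPKM.

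Il34, the other ligand, fell to 16.7, 25.3, 19.6 and 16.9 FPKM in tamoxifen tumors, against 75.3, 41.8, 55.1 and 54.0 FPKM in vehicle tumors. Its log2 fold change was -1.47 (SE 0.20, limma adjusted p = 0.00969), and the call held on leaving out each library in turn. Csf1 stood at 0.895 to 1.36 times the FPKM of Il34 in tamoxifen tumors and 0.4425 to 0.683 times in vehicle tumors, so Il34 was the more abundant ligand in every vehicle tumor. Flt3l, the ligand of the dendritic cell receptor Flt3, also fell (28.0 to 32.6 FPKM in tamoxifen and 43.8 to 44.7 FPKM in vehicle tumors, adjusted p = 0.0175). Its locus overlaps the abundant Rpl13a, and the call was lost on leaving out vehicle replicate 2, 3 or 4 (0.0613 in the case of replicate 3), and with scaling to total FPKM (0.512). This list holds myeloid growth factors, their receptors and signalling partners. Of its 9 tested genes 2 fell, against 3.07% of all tested genes. The other 7 did not pass, and the median of the 9 was -0.54.

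The receptor gene did not pass. Csf1r (ENSMUSG00000024621, chromosome 18) measured 28.8, 80.5, 39.8 and 52.5 FPKM in tamoxifen tumors, against 76.9, 53.1, 59.7 and 54.8 FPKM in vehicle tumors. Tamoxifen replicate 1 was the lowest of the 8 libraries and tamoxifen replicate 2 the highest, so the groups overlap throughout. The log2 fold change was -0.36 (95% interval -1.02 to 0.31, adjusted p = 0.511). The authors' locus for Csf1r also spans the neighbouring gene Hmgxb3 (6.16 FPKM on average). Per Csf1r, C1qb was higher in tamoxifen tumors, at 8.07, 4.48, 4.77 and 4.92 times, against 4.00, 3.58, 3.79 and 3.74 times in vehicle tumors. Cd14 per Csf1r showed the same, at 0.414 to 0.781 in tamoxifen and 0.207 to 0.342 in vehicle tumors. Of the 12 ratios 4 did not overlap, and they were not tested.

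**Figure D2:**
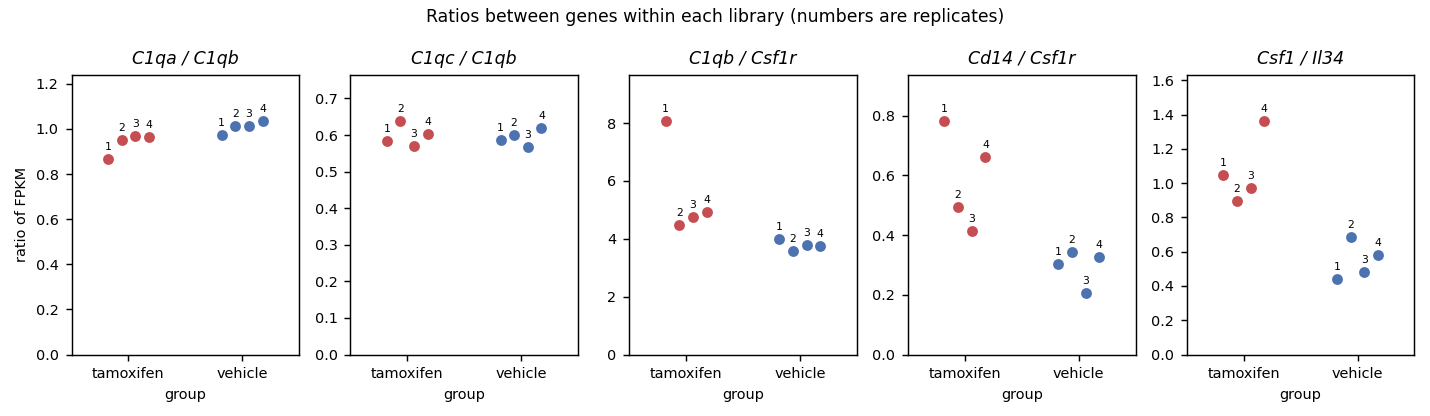
Ratios of FPKM between pairs of genes within each library, tamoxifen (red) left of vehicle (blue), with replicate numbers. The C1qc to C1qb ratio overlaps between groups, while C1qb per Csf1r (4.48 to 8.07 in tamoxifen and 3.58 to 4.00 in vehicle tumors) and Csf1 per Il34 do not.

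The surface and lysosomal markers were variable in the tamoxifen group. Emr1 (ENSMUSG00000004730, chromosome 17) measured 26.1, 60.1, 10.2 and 26.2 FPKM in tamoxifen tumors, against 28.7, 40.1, 26.4 and 27.3 FPKM in vehicle tumors. Its group means were almost equal, 30.6 ± 21.0 and 30.6 ± 6.41 FPKM (SD, n = 4 each), but the highest tamoxifen tumor stood 5.90-fold above the lowest, against 1.52-fold in vehicle tumors. The log2 fold change was -0.23 (95% interval -1.24 to 0.79, adjusted p = 0.801), and its sign turned without tamoxifen replicate 3 (0.19).

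Cd68 (ENSMUSG00000018774, chromosome 11) measured 80.4, 122, 24.6 and 34.4 FPKM in tamoxifen tumors, against 49.2, 35.3, 42.5 and 34.7 FPKM in vehicle tumors. Tamoxifen replicates 1 and 2 lay above all vehicle tumors and replicates 3 and 4 below them. The log2 fold change was 0.42 (95% interval -0.63 to 1.47, adjusted p = 0.627), with differences of 1.22 within the lower identifiers and -0.25 within the higher identifiers. Without tamoxifen replicates 1 and 2, an alternative added after the data were seen, it was -0.45 (adjusted p = 0.304).

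Lyz2 (ENSMUSG00000069516, chromosome 10) measured 672, 1183, 214 and 470 FPKM in tamoxifen tumors, against 336, 258, 216 and 344 FPKM in vehicle tumors. All but tamoxifen replicate 3, the lowest of the 8, exceeded every vehicle tumor. The log2 fold change was 0.91 (95% interval -0.15 to 1.97, adjusted p = 0.292), with 1.75 within the lower and -0.11 within the higher identifiers. It was 0.16 (adjusted p = 0.831) without tamoxifen replicates 1 and 2 and 1.35 (0.0576) without tamoxifen replicate 3. Lyz1, a near-identical lysozyme gene whose reads the authors' counting could share with Lyz2, measured 1.04 to 5.95 FPKM in tamoxifen and 0.576 to 5.97 FPKM in vehicle tumors.

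**Figure D3:**
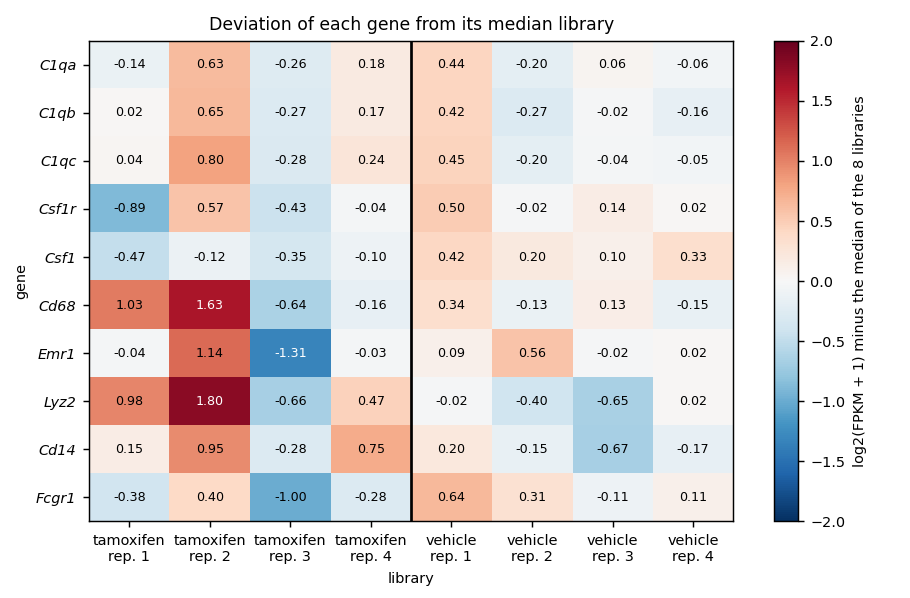
Each gene's log2(FPKM + 1) in each library minus its median over the 8 libraries, tamoxifen left of vehicle. Tamoxifen replicate 2 is highest for 8 genes and tamoxifen replicate 3 lowest for 7, and tamoxifen replicate 1 is high for Cd68 and Lyz2 but lowest for Csf1r and Csf1.

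The lipopolysaccharide co-receptor Cd14 (ENSMUSG00000051439, chromosome 18) measured 22.5, 39.9, 16.5 and 34.6 FPKM in tamoxifen tumors, against 23.4, 18.2, 12.3 and 17.9 FPKM in vehicle tumors. Tamoxifen replicates 2 and 4 lay above all vehicle tumors and the others within their range (log2 fold change 0.59, 95% interval -0.08 to 1.25, adjusted p = 0.281). Of 12 tested genes of lipopolysaccharide and Toll-like receptor recognition none passed by limma, and the median was -0.07. In 1 of them the unadjusted p was under 0.05 (22.4% over all genes). That gene was Cd180, a B cell and macrophage relative of Tlr4, at 1.60 to 5.35 FPKM in tamoxifen and 4.39 to 10.9 FPKM in vehicle tumors (adjusted p = 0.183). Tlr4 itself, the receptor that Cd14 serves, measured 4.88 to 12.0 FPKM in tamoxifen and 5.53 to 7.73 FPKM in vehicle tumors (adjusted p = 0.419).

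The IgG receptor gene Fcgr1 (ENSMUSG00000015947, chromosome 3) measured 14.5, 25.5, 9.11 and 15.6 FPKM in tamoxifen tumors, against 30.4, 23.9, 17.7 and 20.7 FPKM in vehicle tumors. All but tamoxifen replicate 2 lay below every vehicle tumor (log2 fold change -0.55, 95% interval -1.21 to 0.10, adjusted p = 0.299). Fcgr1 was lower within both identifier ranges, by -0.27 and -0.75. The inhibitory receptor Fcgr2b, a close relative of Fcgr3 with which it may share reads, had the opposite sign, at 43.0 to 166 FPKM in tamoxifen and 21.8 to 38.7 FPKM in vehicle tumors, without overlap (log2 fold change 1.23, adjusted p = 0.115). Of 8 tested Fc receptor genes and partners 1 fell, against 3.07% of all tested genes. The other 7 did not pass, and the median of the 8 was 0.27. The gene that fell was Trim21, an antibody receptor of the cytosol (17.9 to 24.3 FPKM in tamoxifen and 26.7 to 40.4 FPKM in vehicle tumors, adjusted p = 0.0421). That call was lost on leaving out any of 6 single libraries (0.106 in the case of vehicle replicate 2) and with scaling to total FPKM (0.419).

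**Figure D4:**
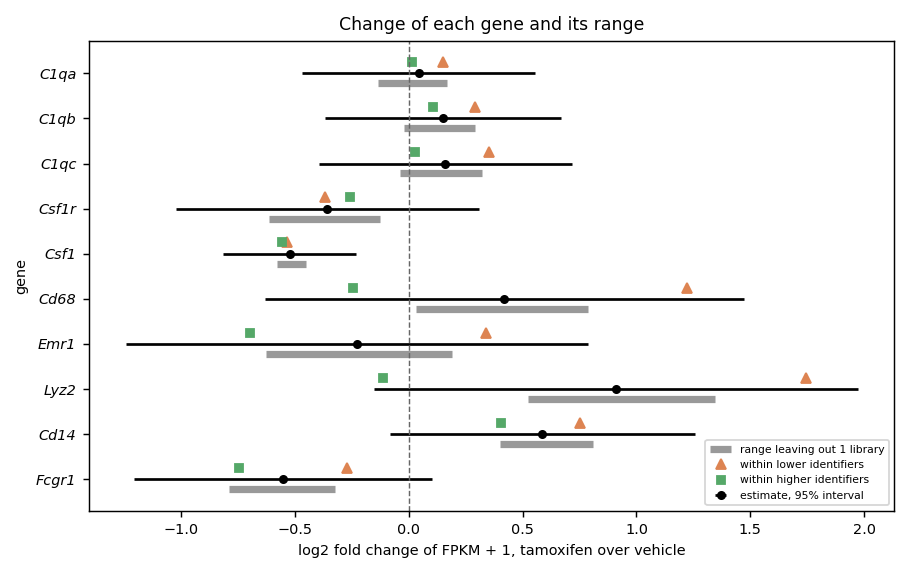
Log2 fold change of FPKM + 1, tamoxifen over vehicle, with its 95% interval (black), the range when 1 library is left out (grey), and the difference of means within the lower (triangles) and higher (squares) sample identifiers. The interval of Csf1 alone leaves out 0, and Cd68, Emr1 and Lyz2 differ in sign between the identifier ranges.

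Tamoxifen libraries varied more than vehicle libraries in all 10 genes, as judged by the range of log2(FPKM + 1), and the same held for 71.9% of all tested genes. Tamoxifen replicate 2 was the highest library for 8 of the 10 genes, against 7.96% of all tested genes, and tamoxifen replicate 3 the lowest for 7, against 13.6% of all. Markers of other cell types differed between these libraries as well. The summed level of 12 neutrophil markers was 182 to 479 FPKM in tamoxifen and 7.58 to 28.4 FPKM in vehicle tumors. It was highest in tamoxifen replicates 4 (479) and 2 (442). Ly6g (97.9 to 170 FPKM) and S100a8 (33.7 to 185 FPKM) were the largest parts of the tamoxifen sums. Of 6 tested markers 4 rose (Ly6g, S100a8, S100a9 and Retnlg), against 2.38% of all tested genes. Mmp8 and Csf3r did not pass (log2 fold changes 1.03 and 0.17, limma adjusted p = 0.176 and 0.858), and Csf3r alone of the 6 overlapped between the groups. Retnlg was lost on leaving out any of 7 single libraries (adjusted p = 0.129 in the case of vehicle replicate 3). Neutrophils also contain Lyz2 and Cd14. The granule genes Elane and Mpo, made by neutrophil precursors, stayed at 0.249 FPKM or less in every library. The neutrophil markers Ltf, Camp and Ngp reached higher levels in tamoxifen tumors. Camp measured 0.603 to 1.98 FPKM in tamoxifen and 0 to 0.243 FPKM in vehicle tumors, without overlap. Ltf (0.276 to 3.195 against 0.0571 to 0.456 FPKM) and Ngp (0.0807 to 4.21 against 0 to 0.13 FPKM) overlapped between the groups. Elane, Mpo, Ltf, Camp and Ngp were not among the tested markers. The part of neutrophils in the levels of Lyz2 and Cd14 was not tested.

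The matrix gene Dcn, a marker of fibroblasts, measured 422, 531, 81.5 and 148 FPKM in tamoxifen replicates 1 to 4, against 59.7 to 90.2 FPKM in vehicle tumors (adjusted p = 0.134). Its 2 highest libraries are also those of Cd68, and the same held for the mesenchymal markers Lum, Pdpn and Pdgfra. The collagen genes Col1a1 and Col1a2 were instead lowest of the 8 libraries in tamoxifen replicate 1, at 22.6 and 191 FPKM. The summed level of 9 mesenchymal and endothelial markers was 559 to 1092 FPKM in tamoxifen and 371 to 624 FPKM in vehicle tumors. Of the 9, 1 rose, against 2.38% of all tested genes. It was the endothelial adhesion gene Pecam1 (log2 fold change 0.75, adjusted p = 0.0335). That call was lost on leaving out any of 6 single libraries (0.102 in the case of vehicle replicate 3) and with scaling to total FPKM (0.168). The 7 epithelial and Paneth cell markers summed to 380 to 979 FPKM in tamoxifen and 216 to 369 FPKM in vehicle tumors. None of them passed by limma and 3 had an unadjusted p under 0.05 (22.4% over all genes). Markers of dendritic cells, which also make C1q, summed to 14.9 to 21.0 FPKM in tamoxifen and 42.5 to 61.9 FPKM in vehicle tumors. Of these 8 markers 5 fell (Batf3, Clec9a, Xcr1, Itgae and Siglech), against 3.07% of all tested genes. Siglech was lost on leaving out any of 7 single libraries (0.116 in the case of vehicle replicate 3), Itgae any of 2 (0.0590 for vehicle replicate 2) and Xcr1 with vehicle replicate 2 left out (0.0541). The 8 T and NK cell markers summed to 88.2 to 112 FPKM in tamoxifen and 165 to 240 FPKM in vehicle tumors. Of these 5 fell (Cd3e, Nkg7, Prf1, Cd8a and Cd3d), against 3.07% of all tested genes. Cd3d was lost on leaving out any of 3 single libraries (adjusted p = 0.0612 in the case of vehicle replicate 4). Cd8a was lost on leaving out any of 2 (0.0512 in the case of vehicle replicate 4). With scaling to total FPKM Prf1, Cd8a and Cd3d did not pass (0.0773, 0.0773 and 0.122), nor did Itgae and Siglech (0.0580 and 0.132). The 4 tumor markers Kit, Ano1, Etv1 and Gpr20 summed to 888 to 1272 FPKM in tamoxifen and 1123 to 1670 FPKM in vehicle tumors. None of the 4 passed by limma and 3 had an unadjusted p under 0.05 (22.4% over all genes). The part of these shifts in the macrophage genes was not tested.

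**Figure D5:**
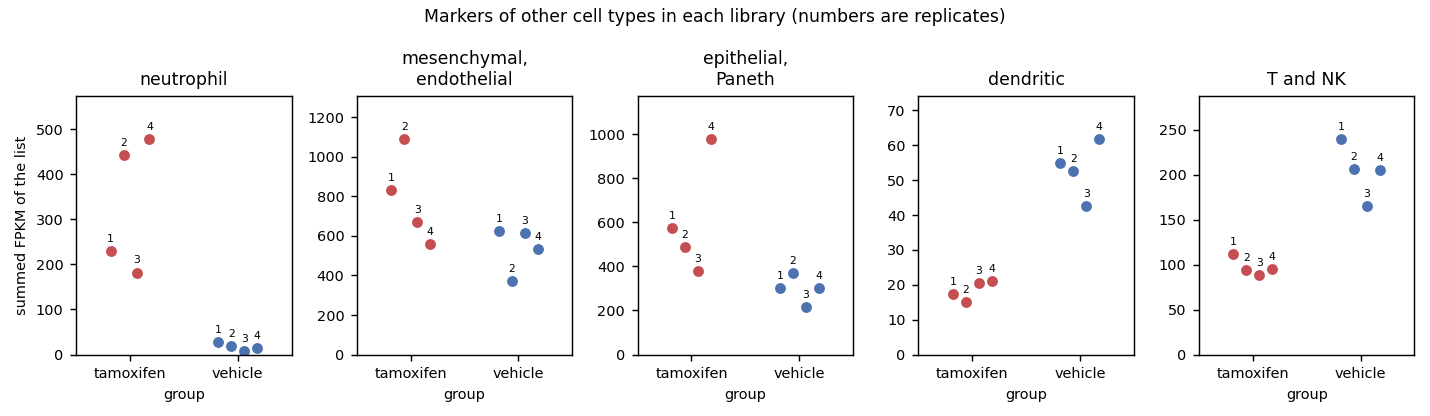
Summed FPKM of marker lists for neutrophils, mesenchyme and endothelium, epithelium and Paneth cells, dendritic cells, and T and NK cells in each library, tamoxifen (red) left of vehicle (blue), with replicate numbers. Neutrophil sums are 182 to 479 FPKM in tamoxifen and 7.58 to 28.4 FPKM in vehicle tumors, while dendritic and T and NK cell sums are lower in every tamoxifen tumor.

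Across the 8 libraries the C1q chains followed each other most closely. Csf1 was left out of this comparison because its groups stand apart, which leaves 36 pairs of the other 9 genes, all with a positive Pearson correlation of log2(FPKM + 1). After adjustment over the 36 pairs, 3 pairs passed by Pearson correlation and 4 by Spearman correlation in exact permutation tests. C1qb and C1qc had r = 0.989 and rho = 1 (permutation adjusted p = 0.000893 and 0.00179). Their r was 0.961 without tamoxifen replicate 2 and vehicle replicate 1, the 2 libraries farthest from the median of C1qb. In each pair the libraries left out were chosen by 1 of the genes, which narrows the range of that gene. C1qa and C1qb had r = 0.971 and rho = 0.929 (permutation adjusted p = 0.00417 and 0.0201; r = 0.853 without those libraries). C1qa and C1qc had r = 0.971 and rho = 0.929 (permutation adjusted p = 0.00417 and 0.0201; r = 0.870 without them). Emr1 and Fcgr1 had rho = 0.929 (permutation adjusted p = 0.0201) and r = 0.813 (adjusted p = 0.0889), with r = 0.521 without tamoxifen replicates 2 and 3. Cd68 and Lyz2 had r = 0.872 and rho = 0.595 (permutation adjusted p = 0.0625 and 0.272). Their r was 0.240 without tamoxifen replicates 1 and 2, the libraries farthest from the median of Cd68. Cd68 and Csf1r, by contrast, had r = 0.211 and rho = 0.476 (permutation adjusted p = 0.639 and 0.324), and r = 0.980 without the same libraries.

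Macrophage genes outside the core set split in both directions without passing. Of 34 tested genes of mononuclear phagocytes none passed by limma, and 10 had an unadjusted p under 0.05 (22.4% over all genes). The change was positive in 19 and negative in 15 (median 0.05). Itgax (CD11c, an integrin of dendritic cells and some macrophages) measured 2.35 to 6.997 FPKM in tamoxifen and 7.01 to 10.7 FPKM in vehicle tumors (log2 fold change -1.05, adjusted p = 0.0607). Mertk, a receptor for dying cells, measured 10.01 to 29.2 FPKM in tamoxifen and 7.42 to 9.09 FPKM in vehicle tumors (1.11, adjusted p = 0.0762). The hemoglobin scavenger receptor Cd163 measured 2.90 to 12.3 FPKM in tamoxifen and 1.15 to 2.07 FPKM in vehicle tumors (1.21, adjusted p = 0.0857). In none of these 3 genes did the groups overlap, nor in 7 of the 34 in all (15.1% over all genes). Without tamoxifen replicate 4 Itgax and Mertk passed (adjusted p = 0.0175 and 0.0243).

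Of 9 transcription factors of the macrophage lineage none passed by limma, and 3 had an unadjusted p under 0.05 (22.4% over all genes). Irf8, needed by dendritic cells and monocytes, measured 15.6 to 29.4 FPKM in tamoxifen and 31.9 to 61.2 FPKM in vehicle tumors (log2 fold change -0.91, adjusted p = 0.0724). The authors' locus for Irf8 spans 4435365 bases and overlaps 64 other expressed genes, so its value is uncertain. Klf4, expressed in monocytes and in epithelium, measured 16.7 to 35.1 FPKM in tamoxifen and 10.7 to 20.9 FPKM in vehicle tumors (0.73, adjusted p = 0.142). Sfpi1, which encodes PU.1, measured 15.7, 36.3, 16.0 and 29.3 FPKM in tamoxifen tumors, against 41.8, 25.0, 20.6 and 33.8 FPKM in vehicle tumors (adjusted p = 0.562).

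To find the genes most like the C1q genes, each tested gene was correlated over the 8 libraries with the mean log2 level of C1qa, C1qb and C1qc, after subtracting group means from both. The closest 8 were Nr1h3, Trf, Upp2, Srgap2, Slc25a45, Csf2ra, Sh3bgrl3 and Ebi3, with r from 0.938 to 0.951. Without that subtraction r was 0.934 for Nr1h3, 0.945 for Trf and 0.901 for Sh3bgrl3. It was 0.781 for Slc25a45, 0.764 for Ebi3, 0.544 for Srgap2, 0.425 for Csf2ra and 0.249 for Upp2. Nr1h3, the liver X receptor alpha, which controls cholesterol export in macrophages, measured 5.602 ± 1.94 FPKM in tamoxifen and 5.47 ± 1.10 FPKM in vehicle tumors. Trf, which encodes the iron carrier transferrin, measured 61.7 ± 31.6 FPKM in tamoxifen and 46.8 ± 15.5 FPKM in vehicle tumors (SD, n = 4 each). Among the core genes, Fcgr1 (r = 0.877) and Csf1r (0.854) were closest to C1q on this measure and Csf1 (0.683) was the farthest. These are the highest of 12375 correlations over 8 libraries and are given as a description.

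For Csf1 the closest 8 were Itgal, Tnfrsf1b, Selplg, Ppfia4, Pabpc1, Crmp1, Cyth4 and S100a8, with r from 0.958 to 0.989. Without subtracting group means r ranged from -0.613 for S100a8 and 0.0966 for Tnfrsf1b to 0.998 for Itgal. Itgal, the leukocyte integrin chain CD11a, fell to 8.97 ± 2.23 FPKM in tamoxifen tumors, against 17.7 ± 2.92 FPKM in vehicle tumors (log2 fold change -0.92, adjusted p = 0.0333). Selplg, the selectin ligand PSGL-1 of leukocytes, fell to 15.6 ± 4.14 FPKM, against 30.6 ± 5.10 FPKM in vehicle tumors (-0.95, adjusted p = 0.0371). Leaving out 1 library ended each of these calls in 7 of 8 cases, with adjusted p of 0.0918 and 0.0992 in the case of vehicle replicate 4, and scaling to total FPKM gave 0.0865 for both. S100a8, a subunit of the neutrophil protein calprotectin, moved with Csf1 within groups but rose in tamoxifen tumors (108 ± 79.8 FPKM, against 5.42 ± 2.87 FPKM in vehicle tumors, adjusted p = 0.014).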

How the data were processed

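RNA sequencing of 8 cecal tumors (4 tamoxifen, 4 vehicle, groups and replicate numbers from the sample titles) was used. Per the labels' protocols, tumors were ground in Trizol, and the RNA was cleaned with a kit before Illumina library preparation. The authors deposited gene-level FPKM with confidence bounds and a status per value, in the layout of a Cuffdiff table, per the file headers. The submitters' processing notes name STAR 2.3, Cufflinks, Cuffdiff and mm9. The annotation, strandedness, depth and scaling between libraries were not given in the sources used here. Columns were matched by sample identifier, with 0 left unmapped. Locus starts were counted from 1.

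Rows of 1 symbol were summed and the 178 failed values were treated as missing, none of them in the 10 genes. Genes with a mean of at least 1 FPKM and at least 2 estimates per group were tested (15023 of 34586 symbols). Tests ran on log2(FPKM + 1) with limma 3.58.1 in R 4.3.3 (mean-variance trend, 2-sided, Benjamini-Hochberg over all tested genes, threshold 0.05), so folds of low genes are understated. An adjusted p of a gene is from limma. The procedure was checked on simulated data. The 10 genes and the 12 marker and pathway lists (149 symbols, 148 in the table) were chosen with earlier results of these data known. Named from each list were the genes past the threshold (up to 6) and otherwise the 3 smallest p, and the 8 genes most like C1q and most like Csf1, leaving out predicted genes and antigen receptor segments. Genes outside this rule are C1s, C3, Sfpi1, Lyz1, Elane, Mpo, Ltf, Camp, Ngp, Lum, Pdpn, Col1a1, Col1a2, Gpnmb, Arg1, Marco, Lyve1 and Plac8, chosen after their values were seen.

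Alternatives were other pseudocounts, filters, scalings, weights, a robust fit, failed values as deposited, the identifier range, the replicate block, leaving out each library, and, added after seeing the data, leaving out tamoxifen replicates 1 and 2. A gene that the naming rule gives is not reported here.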

Additional observations from a re-analysis of the deposited data

Results flagged for a closer look

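Within a group of 4 libraries, 8 of 134 sets of values had 1 library set far apart from the other 3 by Dixon's criterion, which chance meets in about 1 of 20 sets. Emr1 measured 40.1 FPKM in vehicle replicate 2, against 28.7 FPKM in the next library. C1ra measured 35.6 FPKM in tamoxifen replicate 2, against 28.5 FPKM. Fcgr2b measured 21.8 FPKM in vehicle replicate 3, against 36.3 FPKM. Tlr4 measured 7.73 FPKM in vehicle replicate 2, against 5.83 FPKM. Ly6g measured 97.9 FPKM in tamoxifen replicate 3, against 158 FPKM. Xcr1 measured 0.729 FPKM in tamoxifen replicate 4, against 0.424 FPKM. Siglech measured 2.20 FPKM in vehicle replicate 2, against 3.63 FPKM. Gpr20 measured 136 FPKM in tamoxifen replicate 3, against 80.3 FPKM.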

How the results depend on the processing

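None of the 10 genes passed under any of the 21 alternatives run with limma, and 199 of 210 such values kept their sign. The reversals among them were all in C1qa, C1qb, C1qc, Emr1 and Cd68. Leaving out 1 library gave -0.13 to 0.17 for C1qa, -0.021 to 0.29 for C1qb, -0.040 to 0.32 for C1qc and -0.63 to 0.19 for Emr1. Without tamoxifen replicates 1 and 2 the values were -0.10, -0.044, -0.059 and -0.45 for C1qa, C1qb, C1qc and Cd68. C1qa was -0.060 with scaling to total FPKM without Ighj1 and Ighj4, and Emr1 0.15 with library weights. Csf1 kept its sign in all 21 and passed in the exact permutation test alone, which is not adjusted over genes. The count over all genes, 819, became 534 with a filter of 5 FPKM, 229 with scaling to total FPKM, 252 with the replicate block, 225 without tamoxifen replicates 1 and 2, and 268 to 856 without 1 library.

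Deviations of same-numbered replicates from their group means were weakly correlated across genes (-0.16, -0.00, 0.14 and 0.06 for replicates 1 to 4). Whether equal numbers pair the samples is not stated, and these correlations cannot decide it. The main fit has no replicate block. With a replicate block the adjusted p was 0.109 for Csf1, 0.0522 for Il34, 0.0866 for C1ra and C2, 0.108 for Serping1, 0.114 for Cd46, 0.113 for Trim21, 0.0658 for Flt3l, 0.0669 for Itgal, 0.0861 for Selplg, 0.0774 for Pecam1, 0.0981 for Retnlg, 0.0502 for Siglech, 0.0520 for Prf1, 0.0527 for Xcr1, 0.0539 for Cd3d, 0.0558 for Itgae and 0.0600 for Cd8a.

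Among 57 other named genes 982 of 1184 values kept sign and call, 157 lost the call, 30 gained it and 15 reversed. Nr1h3, near 0, was -0.0048, -0.0038 and -0.0030 with pseudocounts of 0.1 and 0.25 and median ratio scaling, -0.085 with total scaling without Ighj1 and Ighj4, -0.27 without tamoxifen replicates 1 and 2, and -0.18 to 0.14 without 1 library. Sh3bgrl3 was 0.017, 0.034 and 0.0090 with total scaling, library weights and the identifier range, and -0.15 to 0.076 without 1 library. Pabpc1 was -0.14 to 0.013 without 1 library, and Tlr4 -0.035 without tamoxifen replicates 1 and 2. The cause of these changes was not tested. Total scaling without Ighj1 and Ighj4 moved the median of all genes by -0.0907 on the log2 scale, and total scaling by 0.0522. The depth behind the FPKM is unknown, and the 95% intervals of 9 of the 10 genes include changes in either direction.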

Other observations

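Of the 37 mononuclear phagocyte genes outside the core set, 20 were highest in tamoxifen replicate 2 and 3 were lowest there. Over all tested genes 7.96% were highest and 13.2% lowest in that library. Lyve1, a marker of some tissue macrophages and of lymphatic endothelium, was among the lowest, at 338 FPKM there and 727 to 1378 FPKM in the other tamoxifen tumors, against 636 to 762 FPKM in vehicle tumors. Plac8 also had its lowest value there, at 1022 FPKM. The genes named here were chosen after their values were seen. Gpnmb, a lysosomal glycoprotein of lipid-laden macrophages, measured 31.4, 53.2, 3.93 and 4.48 FPKM in tamoxifen replicates 1 to 4, against 0.668 to 3.54 FPKM in vehicle tumors (limma adjusted p = 0.106). Arg1, which encodes arginase, measured 58.8 FPKM in tamoxifen replicate 2 and 3.97 to 21.1 FPKM in the other tamoxifen tumors, against 0.260 to 6.58 FPKM in vehicle tumors. The scavenger receptor Marco measured 15.8 FPKM in tamoxifen replicate 2 and 0.128 to 2.50 FPKM in the other tamoxifen tumors, against 0.0159 to 0.923 FPKM in vehicle tumors.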
